A study of Homo sapiens with 27 samples.

Results

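NODAL, its relative GDF3 and the secreted antagonists LEFTY1, LEFTY2 and CER1 were followed by their mRNA levels through the first 8 days of cardiac differentiation of human embryonic stem cells. All probes of these 5 genes on the Illumina bead arrays were taken, which gave 6 probes, of which 4 genes had 1 each and CER1 had more than 1. All 5 genes passed the detection filter and were among 13572 genes tested. The arrays held 27 samples of the HuES6 line, an established human embryonic stem cell line, in 2 time courses, called TC1 and TC2.

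Every culture was induced for the first 24 hours with 3 agents, which were FGF2 at 10 ng/ml, a BMP4 dose of 1 ng/ml, and 1 µM of a compound written CHIR00921 in the labels, in a defined medium without serum on Matrigel. Insulin was given only on day 0. The arm without inhibitor was sampled on days 0, 1, 2, 3, 4, 5, 6 and 8 in both time courses. The other arm received IWP-2, which blocks Porcupine and with it the secretion of WNT proteins, with TC1 treated on days 2 and 3 and TC2 on days 1 and 2. That arm was sampled on days 3, 4, 5, 6 and 8 in both, and also on day 2 in TC2. All groups therefore had 2 arrays, 1 from each time course, except IWP-2 on day 2 with 1 array. The labels do not say whether cultures were independent, so the p-values rest on array-to-array scatter that may be technical. The cells are 1 line, and the inhibitor window and the time course cannot be told apart. The TC1 arrays of IWP-2 on days 3 and 6 also belong to another series, per the labels.

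NODAL is a secreted ligand of the TGF-beta superfamily. It binds activin receptors together with an EGF-CFC co-receptor (CRIPTO or CFC1), and SMAD2 and SMAD3, with SMAD4 and the DNA-binding partner FOXH1, then switch on target genes. In vertebrate embryos the pathway patterns mesoderm and endoderm and sets the left-right axis, and it helps to hold human embryonic stem cells in the undifferentiated state. LEFTY1 and LEFTY2 bind the ligand or its co-receptor and stop signalling, and in many settings they are themselves targets of the pathway. CER1 is a secreted protein that binds NODAL, and in frogs also BMP and WNT ligands. GDF3 is a related ligand expressed in pluripotent cells, described both as a NODAL-like ligand and as a BMP antagonist.

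The start-site regions of the 3 members with an entry in the RefSeq promoter table (GRCh38.p14) are shown because the mean levels of NODAL and GDF3 without inhibitor were highest on day 1 and that of CER1 on day 2, although the GDF3 difference between days 0 and 1 was not called. Each runs 5′ to 3′ on the gene's strand, from 250 bases before the annotated start to 50 after it, and capitals mark matches to the motifs searched. They are NODAL at chr10:70441632-70441931, minus strand, GDF3 at chr12:7695726-7696025, minus strand, and CER1 at chr9:14722684-14722983, minus strand.
NODAL: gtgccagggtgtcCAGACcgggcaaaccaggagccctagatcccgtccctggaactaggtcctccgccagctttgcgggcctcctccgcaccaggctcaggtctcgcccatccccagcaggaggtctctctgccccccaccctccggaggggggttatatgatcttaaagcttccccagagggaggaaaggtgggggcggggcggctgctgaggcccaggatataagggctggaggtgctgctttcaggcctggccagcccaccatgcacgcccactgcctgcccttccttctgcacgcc
GDF3: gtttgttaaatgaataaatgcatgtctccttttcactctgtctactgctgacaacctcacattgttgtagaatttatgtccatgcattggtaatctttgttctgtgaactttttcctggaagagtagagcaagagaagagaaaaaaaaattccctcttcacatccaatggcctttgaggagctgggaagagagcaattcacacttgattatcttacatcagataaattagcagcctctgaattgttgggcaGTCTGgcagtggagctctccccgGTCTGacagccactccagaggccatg
CER1: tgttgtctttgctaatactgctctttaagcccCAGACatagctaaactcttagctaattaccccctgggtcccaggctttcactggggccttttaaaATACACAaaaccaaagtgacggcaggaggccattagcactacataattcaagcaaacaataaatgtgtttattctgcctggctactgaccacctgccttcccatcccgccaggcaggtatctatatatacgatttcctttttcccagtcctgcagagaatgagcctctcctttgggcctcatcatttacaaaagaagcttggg
The motifs searched on both strands were ATCCACA and ATACACA for FOXH1, CAGAC and GGCGC for SMAD proteins, and CTTTGAT and CTTTGAA for TCF and LEF factors. ATACACA stood once in the CER1 window, and 2.73% of 35116 windows of this length held it. CAGAC stood once in the NODAL window, once in the CER1 window and at 2 places in the GDF3 window, both just after the start and written there as its reverse complement GTCTG. That motif occurred in 45.3% of all windows. GGCGC (in 48.6% of windows), ATCCACA (2.73%), CTTTGAT (2.62%) and CTTTGAA (4.43%) had no match in these 3 windows. None of the matches overlapped, and a match is a string of letters, not a binding site.

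Levels below are background-corrected, quantile-normalised log2 intensities. A probe counted as detected on an array at a detection p below 0.01, and the lowest detected level lay between 4.72 and 5.13 depending on the array. Mean scanner signal was 293.1 to 349.5 on 26 of the arrays and 225.2 on the IWP-2 day 8 array of TC2. Between 16424 and 19784 probes were detected per array. Markers of undifferentiated stem cells were detected for 6 of 6 genes on both day 0 arrays and those of neuroectoderm (at most 1 of 4 genes) and trophoblast (at most 2 of 4) stayed at or near background throughout. Fewer cells of a type and less RNA per cell cannot be told apart in such bulk samples.

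**Figure D1:**
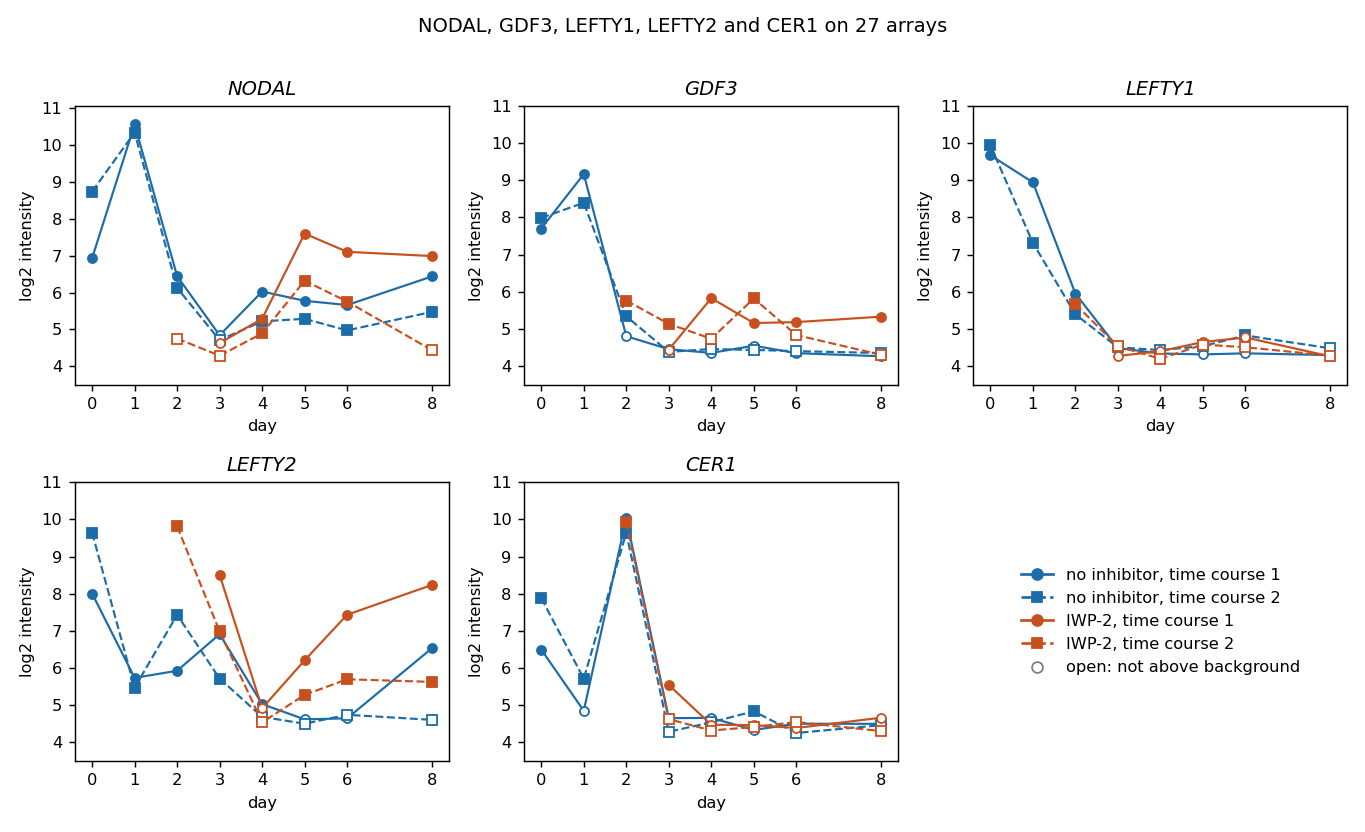
Log2 intensity of each gene (vertical axis) by day (horizontal axis) without inhibitor (blue) and with IWP-2 (orange), 1 point per array, TC1 as circles with solid lines and TC2 as squares with dashed lines. Open points were not above background. NODAL and GDF3 are highest on day 1, CER1 on day 2, LEFTY1 on day 0, and LEFTY2 is highest with IWP-2 on day 2.

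NODAL, the ligand, rose in the 24 hours of induction and fell again on the next day. Its level without inhibitor was 6.93 and 8.74 on day 0, 10.57 and 10.35 on day 1, and 6.45 and 6.12 on day 2 in TC1 and TC2, respectively. Both day 1 arrays lay above all other 25 arrays, and the day 0 arrays differed more from each other than those of day 1 or day 2. The rise from day 0 to day 1 was 2.62 ± 0.60 (log2, SE, n = 2 and 2, 6.13-fold, limma adjusted p = 0.0262), and it was 3.63 in TC1 and 1.60 in TC2. The rise lost its call without the time course term (adjusted p = 0.0801), and when the TC1 day 0 array (1.31), the TC1 day 1 array (2.82) or the TC2 day 1 array (2.41) was left out. From day 1 to day 2 the level fell by 4.17 ± 0.60 (18-fold, adjusted p = 0.000289).

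On day 3 NODAL was not detected on either array without inhibitor, at 4.84 and 4.71. It was detected again from day 4 to day 8, at 6.03 and 5.22 on day 4, 5.78 and 5.29 on day 5, 5.66 and 4.97 on day 6, and 6.44 and 5.48 on day 8. The day 3 arrays were therefore the lowest of this arm, and levels after them stayed below those of day 0. Day 4 differed from day 2 by -0.66 ± 0.60 (adjusted p = 0.509), which was not called. Day 8 stood below day 0 by -1.88 ± 0.60 (adjusted p = 0.0181). This last difference was -0.50 in TC1 and -3.27 in TC2, and the call was lost when the TC2 array of day 0 (-0.58) or of day 8 (-1.68) was left out.

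GDF3 was high on days 0 and 1 and low from day 2 on. Its level was 7.70 and 7.99 on day 0, 9.17 and 8.39 on day 1, and 4.80 (not detected) and 5.34 on day 2. The day 1 arrays lay above the day 0 arrays, yet the difference of 0.93 ± 0.38 (adjusted p = 0.273) was not called. Day 2 differed from day 1 by -3.71 ± 0.38 (13.1-fold, adjusted p = 9.61e-06). GDF3 was not detected on any array without inhibitor from day 3 to day 8, where its level was 4.26 to 4.55. By day 8 it was at least 8.38-fold lower than on day 0 (adjusted p = 1.95e-06). Here and below, "at least" sets the brighter group's mean against the lowest detected level on arrays where the gene was not detected.

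LEFTY1, the first of the antagonists, was highest in undifferentiated cells. Its level was 9.67 and 9.94 on day 0, 8.94 and 7.31 on day 1, and 5.95 and 5.39 on day 2. These 3 days did not overlap. The falls were -1.68 ± 0.34 from day 0 to day 1 (adjusted p = 0.0121) and -2.46 ± 0.34 from day 1 to day 2 (adjusted p = 0.000201). By day 4 it was at least 1.72-fold lower than on day 2 (adjusted p = 0.0144). By day 8 it was at least 32.7-fold lower than on day 0 (adjusted p = 9.09e-09). From day 3 on LEFTY1 was detected on 1 array only, day 6 without inhibitor in TC2, at 4.82. The fall to day 1 was -0.73 in TC1 and -2.63 in TC2, and its call was lost when the day 0 array of TC1 (-1.87) or TC2 (-1.48) or the TC2 day 1 array (-0.85) was left out. The day 4 call was lost when the TC1 day 2 array (-1.03) or the day 4 array of TC1 (-1.19) or TC2 (-1.38) was left out.

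LEFTY2 is a close copy of LEFTY1, and how far each probe reads the other's transcript was not tested. Its levels took another course, and Pearson's r with LEFTY1 was 0.42 over the 27 arrays. Without inhibitor LEFTY2 was 8.00 and 9.64 on day 0, 5.73 and 5.47 on day 1, 5.92 and 7.43 on day 2, and 6.91 and 5.71 on day 3. The fall from day 0 to day 1 was -3.22 ± 0.77 (9.33-fold, adjusted p = 0.0322), and it lost its call without the time course term (adjusted p = 0.0716) and when the day 1 array of TC1 (-3.04) or TC2 (-3.40) or the TC2 day 0 array (-2.01) was left out. The difference of day 2 from day 1, 1.08 ± 0.77 (adjusted p = 0.424), was not called, with 0.19 in TC1 and 1.96 in TC2. The higher array was thus day 3 in TC1 and day 2 in TC2.

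Later LEFTY2 sank towards background without inhibitor. It was 5.02 on day 4 in TC1, and it was not detected on the other day 4 array or on any array of days 5 and 6 (4.50 to 4.74). On day 8 it was 6.54 in TC1 and 4.60, not detected, in TC2. Day 4 minus day 2 was -1.82 ± 0.77 (adjusted p = 0.117), which passed when the TC1 day 2 array was left out (-2.96). Day 8 stood below day 0 by -3.25 ± 0.77 (adjusted p = 0.00261), and the call was lost when the TC2 array of day 0 (-2.04) or of day 8 (-2.53) was left out. On the day 8 array of TC1 the summed linear level of 8 definitive endoderm markers was 5044, against 2325 in TC2. These were SOX17, FOXA2, CXCR4, FOXA1, HHEX, FOXA3, TTR and AFP, and a few abundant transcripts can set such a sum. Of the markers 7 were detected in TC1 and 8 in TC2, with a mean log2 level of 7.88 and 6.59. The part of these markers in the LEFTY2 level was not tested.

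CER1 showed a pulse on day 2. The probe with the higher mean was at 6.49 and 7.88 on day 0, 4.85 (not detected) and 5.71 on day 1, and 10.03 and 9.64 on day 2. The day 2 arrays lay far above all others without inhibitor, and days 0, 1 and 2 did not overlap. CER1 fell by 1.91 ± 0.38 on the log2 scale from day 0 to day 1 (adjusted p = 0.010) and rose by 4.55 ± 0.38 from day 1 to day 2 (23.5-fold, adjusted p = 1.36e-06). The call for the first of these was lost when the TC1 day 1 array (-1.45) or the TC2 day 0 array (-1.17) was left out. By day 4 it was at least 30.8-fold lower than on day 2 (adjusted p = 1.54e-07), and on day 8 at least 5.31-fold lower than on day 0 (adjusted p = 3.16e-05). After day 2 it was detected on 1 array without inhibitor, at 4.83 on day 5 of TC2. The second CER1 probe ran in parallel (r = 0.993 over 27 arrays) and rose by 4.61 ± 0.35 from day 1 to day 2.

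Set against the whole table, the 5 genes were called as follows. From day 0 to day 1, NODAL rose and LEFTY1, LEFTY2 and CER1 fell, so that 4 of 5 were called, where 2.79% of all genes were (1.05% higher and 1.74% lower). From day 1 to day 2, CER1 rose and NODAL, GDF3 and LEFTY1 fell, again 4 of 5, with 11.9% of all genes called (6.87% higher and 5.05% lower). From day 2 to day 4, LEFTY1 and CER1 fell, where 18.4% of all genes were called and 9.7% were lower. All 5 were lower on day 8 than on day 0, where 43.2% of all genes were called and 21.5% were lower. The median difference of the 5 was -1.68, -2.46, -1.29 and -3.25 in these comparisons, while the median over all genes tested lay between -0.012 and 0.0073. The 5 genes were chosen with earlier results of these data known, so these shares and medians describe them and carry no test.

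**Figure D2:**
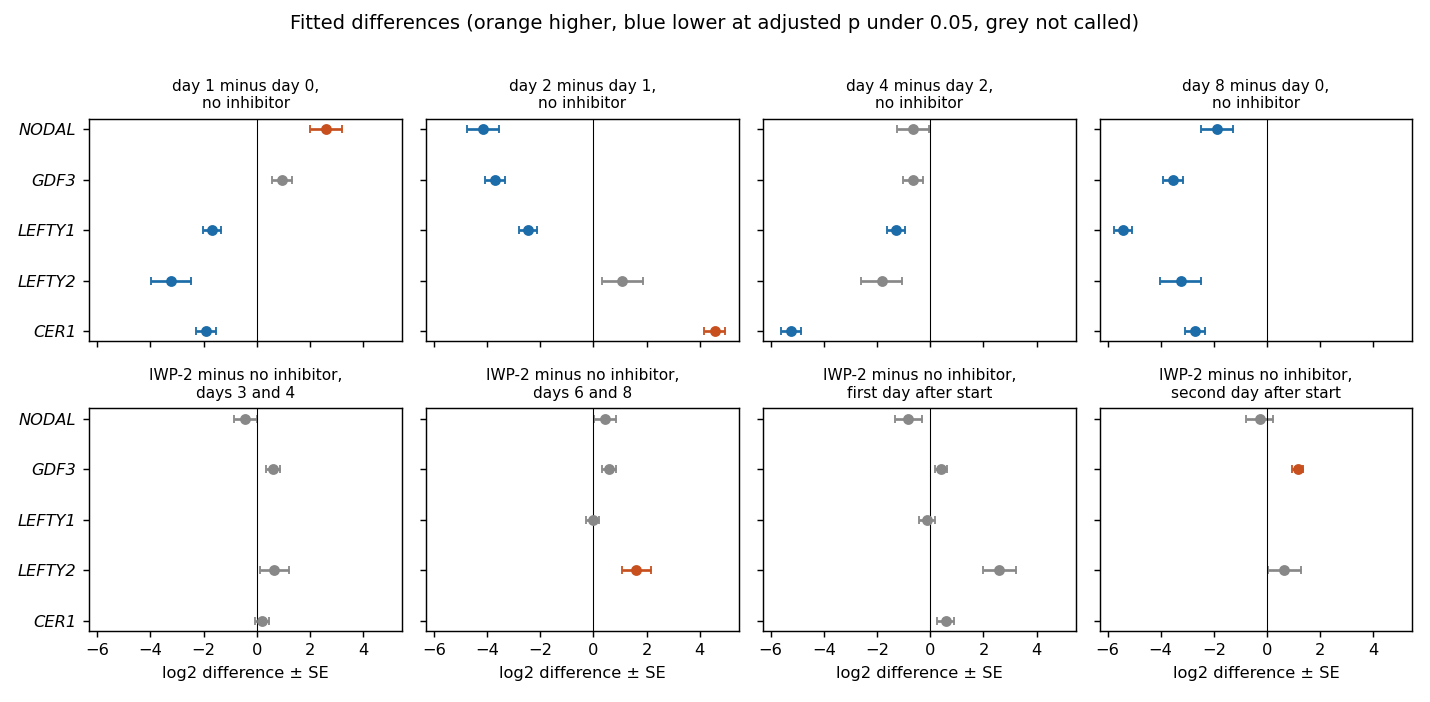
Fitted log2 difference (horizontal axis) of each gene with its standard error in 8 comparisons, from limma over all 27 arrays. NODAL is higher on day 1 and CER1 on day 2, all 5 genes are lower on day 8 than on day 0, and with IWP-2 LEFTY2 is higher on days 6 and 8 and GDF3 on the second day after the start. Genes not detected in either group are left out of a panel.

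The inhibitor arm was compared by calendar day and by days since IWP-2 was first added. On day 2 of TC2, 1 day after the first addition, LEFTY2 was 9.81 with IWP-2 and 7.43 without. One day after the first addition in TC1, on day 3, it was 8.51 and 6.91. LEFTY2 was thus higher with the inhibitor in both time courses, by 2.38 and 1.60. The model estimate, which pools both time courses for the level without inhibitor, was 2.60 ± 0.63 (adjusted p = 0.110) and was not called, in a comparison where 0.508% of all genes were and 0 of the 5 (1 of 5 at an unadjusted p under 0.05). On the same 4 arrays NODAL was not detected with IWP-2, at 4.75 and 4.63, and without it was 6.12 on day 2 of TC2 and not detected on day 3 of TC1. The NODAL estimate was -0.83 ± 0.50 (adjusted p = 0.922). CER1 on day 2 was 9.93 with IWP-2 and 9.64 without in TC2. On day 3 of TC1 CER1 was detected with IWP-2, at 5.54, and not detected without. Its estimate for that first day was 0.59 ± 0.32 (adjusted p = 0.864).

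On the second day after the first addition GDF3 was called. Its level was 5.82 with IWP-2 on day 4 of TC1 and 5.13 on day 3 of TC2, against 4.35 and 4.38 without, where it was not detected. The model estimate was 1.15 ± 0.22 on the log2 scale, at least 1.46-fold (adjusted p = 0.0109), in a comparison where 2.21% of all genes were called (1.01% higher) and 1 of the 5. With arrays matched within day and time course, an alternative added after seeing the data, the estimate was 1.11 and not called (adjusted p = 0.104). When the TC1 IWP-2 day 4 array was left out it was 0.78 and not called. LEFTY2 on that second day was not detected with IWP-2 in TC1, at 4.92, and was 6.99 against 5.71 in TC2. Markers of undifferentiated stem cells, which express GDF3, had a summed linear level of 3079 and 3467 on these IWP-2 arrays and of 3068 and 3428 without. Their mean log2 level was 7.43 and 8.41 with IWP-2 and 7.39 and 7.82 without, and 5 and 6 of the 6 markers were detected with IWP-2 against 4 and 5 without. Their part in the GDF3 difference was not tested.

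By calendar day, limma called 0 of the 5 genes over days 3 and 4, where 4.35% of all genes were called, and 1 had an unadjusted p under 0.05. LEFTY2 differed by 0.65 ± 0.54 (adjusted p = 0.623), GDF3 by 0.62 ± 0.27 (adjusted p = 0.246) and NODAL by -0.43 ± 0.43 (adjusted p = 0.702). The LEFTY2 difference belonged to day 3, since on day 4 the gene was not detected with IWP-2 on either array. Whether the inhibitor's difference on days 3 and 4 was itself unequal in the 2 time courses was tested in a limma fit with terms for it, set against the general difference between the time courses. Of the 5 genes 0 passed (adjusted p at least 0.911) and 0 had an unadjusted p under 0.05, with 0.0295% of all genes called.

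On days 6 and 8 LEFTY2 was higher with IWP-2, and it was the 1 gene of the 5 that was called, where 35% of all genes were called and 17% were higher. Its level with IWP-2 was 7.43 and 5.69 on day 6 and 8.24 and 5.62 on day 8. Without inhibitor it was 4.64 and 4.74 on day 6 and 6.54 and 4.60 on day 8, detected only at 6.54. Within each day and time course the IWP-2 array was the higher one, with differences of 2.79 and 0.96 on day 6 and of 1.70 and 1.02 on day 8. The mean difference was 1.62 ± 0.54 (n = 4 and 4, 3.07-fold, adjusted p = 0.0290). It lost its call without the time course term (adjusted p = 0.0536), and when the TC1 IWP-2 array of day 6 (1.31) or day 8 (1.07), the TC1 day 6 array without inhibitor (1.43) or the TC2 day 8 array without inhibitor (1.26) was left out. On day 5 the gene was 6.21 and 5.28 with IWP-2 and not detected without.

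By calendar day NODAL changed side between day 4 and day 5, a change that was not tested. With IWP-2 it was 5.29 and 4.89 on day 4, lower than without by -0.74 and -0.33. On day 5 it was 7.60 and 6.32 with IWP-2, higher by 1.83 and 1.03, and on day 6 it was 7.10 and 5.75, higher by 1.45 and 0.78. Counted from the first addition the sides were not shared. NODAL was then, after 3 days, higher by 1.83 in TC1 and lower by -0.33 in TC2. On day 8 the time courses parted, with 6.99 in TC1, higher by 0.55, and 4.43, not detected and lower by -1.04, in TC2. That last array is also the one with the lowest mean signal. Over days 6 and 8 together NODAL differed by 0.43 ± 0.43 (adjusted p = 0.479), which was not called.

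GDF3 was detected with IWP-2 on days 5, 6 and 8 of TC1, at 5.16, 5.18 and 5.33, and on day 5 of TC2, at 5.82. It was not detected without inhibitor on those days in either time course. With IWP-2 it was not detected on days 6 and 8 of TC2 either, at 4.83 and 4.30. Over days 6 and 8 the difference was 0.57 ± 0.27 (adjusted p = 0.111) and not called, with 0.95 in TC1 and 0.19 in TC2. The difference passed when the TC2 IWP-2 day 8 array was left out (0.83). Over days 5, 6 and 8, a grouping chosen after seeing the data in which 39.9% of all genes were called, it was 0.71 ± 0.22 (adjusted p = 0.0149). LEFTY1 and CER1 were not detected on any IWP-2 array from day 4 on. The inhibitor's difference on days 6 and 8 minus that on days 3 and 4, also tested after seeing the data, was 0.86 ± 0.60 for NODAL and 0.96 ± 0.77 for LEFTY2. Of the 5 genes 0 passed this limma test (adjusted p at least 0.357) and 0 had an unadjusted p under 0.05, with 18.3% of all genes called.

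**Figure D3:**
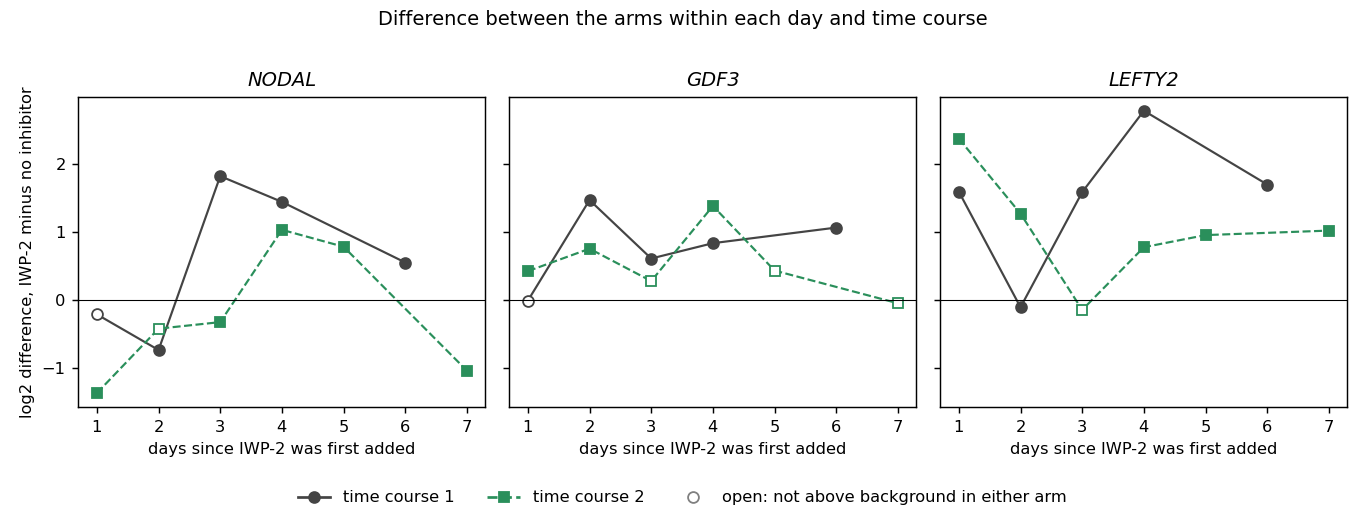
Log2 difference between the IWP-2 array and the array without inhibitor of the same day and time course (vertical axis) by days since IWP-2 was first added (horizontal axis), for TC1 (circles) and TC2 (squares), with open points where neither arm was above background. LEFTY2 is 1.60 and 2.38 higher 1 day after the start and again higher from day 5 of culture on, and NODAL moves from below to above 0 on day 5 of culture.

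Other measures also differed between the arms on these late days, though not all in the same direction in every day and time course. On days 6 and 8 all 6 cardiomyocyte markers were detected on every IWP-2 array, with a summed linear level of 39716 to 54367, against 2 or 3 detected and 1362 to 2803 without inhibitor. The 8 definitive endoderm markers summed to 221.8 to 967.6 with IWP-2 and to 690.9 to 5044 without. On day 6 of TC1 their sum was higher with IWP-2, at 967.6 against 702.5. It was lower with IWP-2 on day 6 of TC2 and on day 8 in both time courses. FOXA2, an endoderm factor, was 7.79 on day 6 and 7.10 on day 8 in TC1 with IWP-2, and 5.73 and 4.22 (not detected) in TC2. In the IWP-2 arm TC1 had the higher NODAL, LEFTY2 and FOXA2 on both days. FOXA2 is 1 of the 8 endoderm markers and was picked after its values were seen. Without inhibitor NODAL was also higher in TC1, at 5.66 against 4.97 on day 6 and 6.44 against 5.48 on day 8. LEFTY2 without inhibitor was higher in TC1 on day 8 (6.54 against 4.60) and not detected on day 6. Between the arms over days 6 and 8 FOXA2 differed by -0.28 ± 0.62 (limma adjusted p = 0.775), which was not called. This difference was -0.014 in TC1 and -0.56 in TC2. Of the 6 markers of undifferentiated stem cells, 2 or 3 were detected on the IWP-2 arrays of days 6 and 8, with a summed linear level of 707.3 to 2406, and 3 or 4 without inhibitor, with 1650 to 2600. NANOG and POU5F1 were among those not detected with IWP-2, and NANOG was not detected without inhibitor on these days either. The part of these markers in the NODAL and LEFTY2 levels was not tested.

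The rest of the pathway was described from a list of 43 genes, of which 41 had a probe and 34 were tested. TGFB1 and BMP4 were on the list as related ligands of the family. The probes of CRIPTO, the co-receptor also called TDGF1, were not above background on any array, day 0 included. Whether these probes work was not checked, so the arrays give no level for CRIPTO in any group. Others of the list that were not tested included DAND5, another secreted NODAL antagonist, and GDF1, INHBA, TGFB1, ACVR1C and PCSK6. NOMO1, NOMO2 and NOMO3 are near-identical copies, and their probes may read one another.

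During induction the calls on this list fell on genes listed as targets. The cultures then also held FGF2, BMP4 and the CHIR compound, and the part of NODAL in these changes was not tested. Of 9 targets 4 rose from day 0 to day 1, which were MIXL1 (at least 97.8-fold, adjusted p = 1.08e-06), TBXT (6.52 ± 0.34), EOMES (3.93 ± 0.44) and GSC (at least 2.20-fold), all transcription factors of the primitive streak or organiser. OTX2, a head and neural factor, fell by 2.48 ± 0.47. Of the 25 listed genes in the other roles 0 passed in limma, and 4 had an unadjusted p under 0.05. Of all genes tested 2.79% were called from day 0 to day 1, so 0 of 25 is near that share. From day 1 to day 2, while NODAL fell, LHX1 (4.07 ± 0.51) and OTX2 (2.99 ± 0.47) rose with CER1. NANOG fell by 3.25 ± 0.23. The ligand INHBB (at least 2.33-fold), the related ligand BMP4 (at least 5.11-fold) and the receptors ACVR2A (1.24 ± 0.17) and ACVR1B (0.49 ± 0.15) rose. Among negative regulators TGIF1 rose by 0.85 ± 0.21 and PMEPA1 and SMAD7, both induced by TGF-beta signalling and acting against it, fell by 1.56 ± 0.37 and 1.07 ± 0.28. Values in TC1 and TC2 were 5.63 and 2.51 for LHX1, 3.99 and 1.98 for OTX2, 1.19 and 0.51 for TGIF1, 0.68 and 0.30 for ACVR1B, and -1.73 and -0.41 for SMAD7.

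From day 2 to day 4, when 9.7% of all genes were lower, 7 of 9 targets fell, among them EOMES (-6.86 ± 0.44), MIXL1 (at least 59.7-fold lower), TBXT (-5.99 ± 0.34) and LHX1 (-4.29 ± 0.51). CFC1, the co-receptor, rose by 4.21 ± 0.68 over the same days, and the signal transducers SMAD3 and SMAD4 rose by 2.15 ± 0.19 and 0.61 ± 0.15. FURIN rose by 0.67 ± 0.22, and the ligand INHBB was at least 2.37-fold lower. Among negative regulators SMAD7 (1.23 ± 0.28) and TGIF2 (0.80 ± 0.14) rose and PMEPA1 (-2.03 ± 0.37) and TGIF1 (-0.95 ± 0.21) fell. CFC1 was 11.78 and 11.32 on day 3, when NODAL was not detected without inhibitor. From day 0 to day 8, 7 of the 34 rose and 7 fell, where 43.2% of all genes were called. Higher were the proprotein convertase PCSK5 (2.99 ± 0.42), SMAD3 (2.70 ± 0.19), BMP4 (2.58 ± 0.41), ACVR2A (1.37 ± 0.17), ACVR1B (0.97 ± 0.15), SMAD7 (0.80 ± 0.28) and CFC1 (at least 2.52-fold). Lower were NANOG (at least 48.2-fold), EOMES (at least 6.74-fold), OTX2 (-4.55 ± 0.47), PMEPA1 (-2.13 ± 0.37), TGIF1 (-1.23 ± 0.21), SKIL (-1.12 ± 0.26) and FOXH1 (-0.81 ± 0.20). By time course CFC1 differed by 3.09 and 0.88 and PMEPA1 by -1.29 and -2.96. Over the 4 comparisons the median difference of the list lay between -0.14 and 0.20.

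With IWP-2, TBXT, a target of WNT signalling as well, was lower on the first day after the start, by -2.81 ± 0.43, and on the second, by at least 3.90-fold (-1.35 in TC1 and -3.83 in TC2 on the log2 scale). FST, which binds activins, was lower by -1.77 ± 0.30 and -1.25 ± 0.30, and BMP4 by -1.34 ± 0.23 and -0.98 ± 0.23. The convertases FURIN (-0.65 ± 0.15) and PCSK5 (-1.02 ± 0.22) were lower on the second day, so that 3 of 34 listed genes were lower on the first day and 5 on the second, against 38 and 163 of all 13572 genes. Limma called 0 higher on either day, and 1 and 4 were higher at an unadjusted p under 0.05. Over days 3 and 4, EOMES (1.53 ± 0.31), OTX2 (1.65 ± 0.33) and GREM1 (at least 1.14-fold) were higher and TBXT lower (-2.40 ± 0.24). EOMES on day 3 was 9.99 and 10.21 with IWP-2 against 8.30 and 7.41 without.

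On days 6 and 8, 5 of 34 were higher with IWP-2 and 7 lower, where 35% of all genes were called, with a list median of 0.02 and -0.02 over all genes. The list's share was thus near that of all genes. Higher were OTX2 (1.85 ± 0.33), CFC1 (1.49 ± 0.48), MIXL1 (at least 2.18-fold), ACVR1B (0.59 ± 0.10) and FOXH1 (0.54 ± 0.14). In the IWP-2 arm MIXL1 had levels of 5.61 and 5.53 on day 6, then of 6.95 and 5.60 on day 8. It was not detected on any of the arrays without inhibitor on those days. Lower were PCSK5 (-3.98 ± 0.30), BMP4 (-1.82 ± 0.29), FST (-1.62 ± 0.56), NBL1 (-1.62 ± 0.36), SMAD3 (-0.82 ± 0.13), TGIF1 (-0.55 ± 0.15) and SMAD4 (-0.54 ± 0.10). The FST difference was -0.23 in TC1 and -3.02 in TC2. The values in TC1 and TC2 were -0.70 and -2.54 for NBL1, -1.12 and -2.53 for BMP4, and 0.88 and 2.09 for CFC1, and whether the time courses differed here was not tested.

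**Figure D4:**
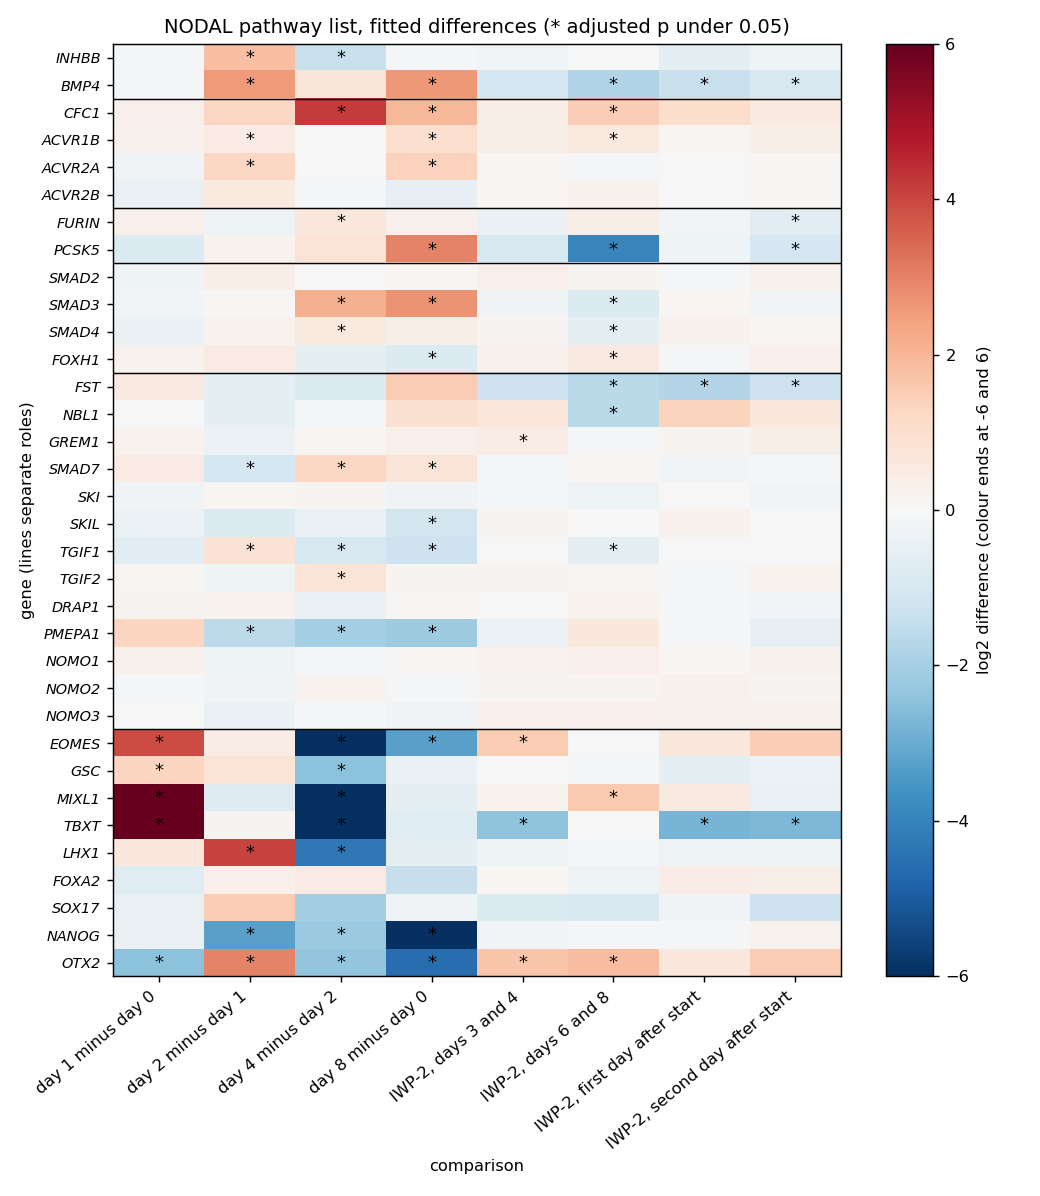
Fitted log2 difference (colour) of the 34 tested pathway genes (vertical axis, grouped by role) in 8 comparisons (horizontal axis), with a star where limma's adjusted p was under 0.05. Targets such as MIXL1, TBXT and EOMES are red on day 1 and blue on day 4, and PCSK5 is blue with IWP-2 on days 6 and 8.

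Among the 5 genes, NODAL and GDF3 had r = 0.82 over the 27 arrays, LEFTY1 and GDF3 0.88, LEFTY1 and NODAL 0.70, LEFTY2 and CER1 0.57, and NODAL and CER1 0.13. The arrays share days and time courses, so these values describe the set and carry no test. The 3 genes with the highest r to NODAL were CALCB (0.84), ALDH3A2 (0.83) and FBP1 (0.82), and CALCB was also among those of GDF3 (0.92), after STEAP3 (0.94) and CCNYL1 (0.93). LEFTY1 was most like HSD11B2 (0.97), SMPDL3B (0.97) and GABRA5 (0.96). CER1 was most like LZTS1 (0.95), RAB26 (0.91) and NTN1 (0.91). For LEFTY2 the closest were IFFO2 (0.75), SEPTIN4 (0.71) and KCNMB4 (0.70), below the r of each of the 3 genes most like any other member. LZTS1 was 11.10 and 9.93 on day 2 without inhibitor and 9.85 with IWP-2, the days and arrays of the CER1 pulse.

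Ordered by group mean, NODAL stood highest on day 1, and from day 0 downwards each neighbouring pair of groups overlapped until IWP-2 on day 4. LEFTY1 had days 0, 1 and 2 apart, and its groups from day 3 on overlapped as neighbours. GDF3 had days 1 and 0 apart from each other and from all the rest. CER1 had day 2 of both arms together at the top, then day 0, then day 1, which overlapped with IWP-2 on day 3. LEFTY2 had IWP-2 on day 2 at the top, which was 1 TC2 array at 9.81, above day 0 without inhibitor. The TC2 array of that day 0 group was at 9.64. The next 11 LEFTY2 groups overlapped each with the following one.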

How the data were processed

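RNA levels were read on Illumina bead arrays from biotin-labelled RNA, per the labels. For each array the deposited scanner table gives an intensity and a detection p-value of every probe, per the file headers. The submitters' processing notes list GenomeStudio with no version. The authors' processed intensity values, on a linear scale with medians that differ between the time courses, served as an alternative (log2 with a pseudocount of 1). The sources used here do not state how these were normalized.

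The scanner intensities were background corrected and quantile normalized to log2 values with neqc (limma 3.58.1, R 4.3.3, offset 16). Of 47323 probes, 30113 carried 1 gene symbol. Probes detected at p below 0.01 on at least 2 arrays were kept (23933), and each gene was represented by its brightest probe on average. Linear models (lmFit, eBayes) over all 27 arrays fitted a mean for each day in each arm, with time course as a block. A second model had 1 mean per day plus inhibitor terms by days since the first addition. Adjustment followed Benjamini and Hochberg over 13572 genes (threshold 0.05). The block comes from the labels, which name a control arm in each time course; deviations of same-numbered arrays from their group means correlated in 78 of 78 pairs of groups (r from 0.12 to 0.80).

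Named genes were the 5 members with every probe, for each member the 3 genes with the highest Pearson r, and up to 4 called genes of each pathway role per comparison with the largest difference. NANOG in the change from day 2 to day 4 and other called targets beyond 4 are given as counts. FOXA2 and POU5F1, given as markers, and the genes named as not tested fall outside this rule and were chosen after their values were seen. The other definitive endoderm markers are named only as members of their list. Some items are not reported here. Members and lists were chosen with earlier results of these data known. The scripts were tested on simulated data. The number of arrays limits the precision. The files name no slides, which left no slide term to fit, and the dose of IWP-2 is not given as a number in the labels.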

Additional observations from a re-analysis of the deposited data

Results flagged for a closer look

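NODAL was singled out because the difference between the arms pointed one way in both time courses on day 4 and the other way in both on days 5 and 6. The IWP-2 minus no inhibitor difference averaged -0.53 on day 4, 1.43 on day 5 and 1.11 on day 6 on the log2 scale. The change from day 4 to day 5 was 1.96, and that from day 4 to day 6 was 1.65. These 2 differences between days were not tested. NODAL was detected on all arrays of these 3 days in both arms, in part near the limit. With IWP-2 on day 4 of TC2 it was 4.89, where the lowest detected level of that array was 4.88.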

How the results depend on the processing

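With all arrays kept, the 40 results on the 5 genes were recomputed 307 times, and 283 values kept direction and side of the threshold, 17 lost the call, 4 gained one and 3 turned. Without the time course term (no replicate block), NODAL (2.62, adjusted p = 0.0801) and LEFTY2 (-3.22) lost the call for day 1 minus day 0, and LEFTY2 (1.62, adjusted p = 0.0536) that for IWP-2 on days 6 and 8; the pairing changed no other call of a member. With the authors' processed values, day 1 minus day 0 was no longer called for NODAL (2.60), LEFTY1 (-1.69), LEFTY2 (-3.55) and CER1 (-2.42), nor day 2 minus day 1 for LEFTY1 (-2.74) or day 8 minus day 0 for NODAL (-2.12), and IWP-2 on days 6 and 8 became called for GDF3 (2.29). Without background correction, GDF3 gained the call for day 1 minus day 0 (0.76), and LEFTY1 for day 4 minus day 2 (-0.44), LEFTY2 for days 6 and 8 (0.78) and GDF3 for the second day after the start (0.38) lost it. With no detection filter LEFTY2 lost day 1 minus day 0 (-3.22) and days 6 and 8 (1.62); with array weights it lost the first (-3.22) and gained day 4 minus day 2 (-1.82); averaged per time course it lost days 6 and 8 (1.62). Among the alternatives added after seeing the data, days 5, 6 and 8 gave GDF3 a call (0.71), and matched arrays ended that of the second day (1.11). LEFTY1, at background, turned sign for days 6 and 8 with median scaling (0.0042) and with days 5, 6 and 8 (0.042), and for the first day with matched arrays (0.031). The cause was not tested in any of these. Median scaling moved the median of all genes to 0.12 for days 3 and 4 and to -0.17 for days 6 and 8, and the share of higher calls from 47.7% to 69.2% and from 48.5% to 28.5%; for the first and second day it went from 44.9% to 61.0% and from 45.7% to 71.1%. Leaving out 1 array or 1 time course at a time moved results within these ranges. Day 1 minus day 0 ran from 1.31 to 3.92 for NODAL, from -2.63 to -0.73 for LEFTY1, from -4.43 to -2.01 for LEFTY2, from -2.65 to -1.17 for CER1 and from 0.41 to 1.46 for GDF3. Day 2 minus day 1 ran from -3.29 to -1.63 for LEFTY1, from -0.064 to 2.22 for LEFTY2, from 3.92 to 5.18 for CER1 and from -4.36 to -3.06 for GDF3. Day 4 minus day 2 ran from -1.61 to -0.96 for LEFTY1 and from -2.96 to -0.68 for LEFTY2, from -0.91 to -0.42 for NODAL and from -0.998 to -0.33 for GDF3, and day 8 minus day 0 from -3.27 to -0.50 for NODAL, from -5.04 to -1.47 for LEFTY2 and from -3.45 to -1.97 for CER1. For IWP-2 on days 3 and 4 CER1 ran from -0.047 to 0.46, LEFTY2 from 0.40 to 0.90 and GDF3 from 0.35 to 0.90. On days 6 and 8 the ranges were -0.13 to 1.00 for NODAL, -0.26 to 0.20 for LEFTY1, 0.99 to 2.25 for LEFTY2 and 0.19 to 0.95 for GDF3. On the first day after the start they were -0.30 to 0.27 for LEFTY1, 1.60 to 3.30 for LEFTY2, 0.022 to 1.14 for CER1, -1.37 to -0.21 for NODAL and -0.011 to 0.71 for GDF3, and on the second day 0.76 to 1.51 for GDF3, -0.74 to -0.11 for NODAL and -0.11 to 1.27 for LEFTY2. The difference between the time courses ran from -0.25 to 0.15 for NODAL, from -1.44 to -0.30 for LEFTY2, from -1.12 to -0.35 for CER1 and from -1.10 to 0.68 for GDF3. A time course alone is a value with no test. The settings, single arrays included, moved the count of genes called from 378 to between 132 and 489 for day 1 minus day 0, from 1618 to between 503 and 2012 for day 2 minus day 1, from 2498 to between 1355 and 3663 for day 4 minus day 2, from 591 to between 296 and 1109 for days 3 and 4, from 4746 to between 1633 and 6213 for days 6 and 8, from 69 to between 5 and 88 and from 300 to between 55 and 394 for the first and second day, and from 4 to between 0 and 14 for the difference between the time courses.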
